A study of Mus musculus with 8 samples.

Results

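The 9 genes described here, Cd274, Pdcd1lg2, Cd80, Cd86, Pvr, Nectin2, Lgals9, Icosl and Cd200, encode ligands through which one cell restrains or co-stimulates another. They were chosen by name for this role, by a rule that uses no measured value although earlier results of these data were known, and are 9 of the 33696 genes counted in each library. All 9 were found in the files. They were measured by single-cell RNA sequencing from the 5′ end of transcripts in EPZFTA-RELA mice (genotype NestinCreERT2;Fus1;RFPTdT, shared by both groups). In this model Cre recombinase under the Nestin promoter switches on the ZFTA-RELA fusion, and the mice develop ependymoma, a tumor of the brain. Mice with tumors were randomised at 3 weeks of age to one intrathecal injection, either of mavrilimumab at 5 mg/kg, which binds GM-CSF receptor alpha, or of a control antibody (Vehicle IgG). Brain and tumor tissue came from mice of 6 to 8 weeks, and the cells were stained for CD45 and Ter119 and sorted. The labels give neither the sort gate nor the number of mice in a library. The study describes extravascular CD45+ cells of the tumor tissue, taken at recurrence and pooled from several tumors. There were 2 gene expression libraries per treatment, called Vehicle IgG 1, Vehicle IgG 2, Mavrilimumab 1 and Mavrilimumab 2 below, and in lists of 4 values they stand in that order. A figure legend of the study gives 2 pooled experiments per group, but the labels do not tie the libraries to them. Nothing in the labels says that the libraries came from separate animals, so the p-values measure the spread between libraries, which may be technical.

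T cells read these ligands through paired receptors. Cd274 (PD-L1) and Pdcd1lg2 (PD-L2) bind PD-1 and dampen an activated T cell. Cd80 and Cd86 bind CD28, which co-stimulates, and CTLA-4, which takes them away from CD28, while Icosl binds ICOS. Pvr (CD155) and Nectin2 (CD112) bind the inhibitory receptors TIGIT and, for Nectin2, PVRIG, and the activating receptor CD226. Lgals9 encodes galectin-9, which binds TIM-3 among other glycoproteins, and Cd200 restrains myeloid cells through the CD200 receptor. Antigen-presenting cells are the classical source of the B7 ligands Cd80 and Cd86, and microglia are the resident macrophages of the brain.

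The libraries differed in depth and in their mix of cells. Total counts of unique molecular identifiers (UMIs, each standing for one captured RNA molecule) were 24354457, 148657643, 35785802 and 87127346, and 984, 26746, 6412 and 5490 cells passed the filters with a median of 11759, 3296, 3758 and 9508 UMIs. Cells were placed in 7 groups by a few gating genes. T cells numbered 220, 3931, 5153 and 2688, and microglia 557, 343, 198 and 641. Neural cells, which lack Ptprc, the gene of CD45, numbered 15390 in Vehicle IgG 2 and 413 in Mavrilimumab 2 but at most 4 in the other two libraries. NK cells, B cells and monocytes reached the minimum of 20 cells in Vehicle IgG 2 and both mavrilimumab libraries (NK 441, 20 and 365, B 62, 178 and 138, monocyte 42, 32 and 60), and neutrophils in Vehicle IgG 2 (56) and Mavrilimumab 2 (50). The shared barcodes between expression libraries were 0 to 60 per pair.

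The TCR libraries bear on the labels. In all 3 T cell receptor (TCR) libraries analysed, the sample name inside the file named the other treatment than the label. Of 2749 cells in the TCR library labelled Mavrilimumab 1, 2491 barcodes were in the expression library Mavrilimumab 2 and 2 in Mavrilimumab 1, and of 5659 in the TCR library labelled Mavrilimumab 2, 4867 were in the expression library Mavrilimumab 1 and 6 in Mavrilimumab 2. Of 193 cells in the TCR library labelled Vehicle IgG 1, 182 were in the expression library of the same name. The directions by treatment below are given for the libraries as labelled. By the inner names, the expression libraries Vehicle IgG 1, Mavrilimumab 1 and Mavrilimumab 2 would each have the other treatment. The directions could then reverse. Which name is right was not settled. The differences between cell groups do not use the treatment labels.

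Marker genes not used in the gates of the 7 groups were set beside each group. The summed level of the group's own markers, in counts scaled to the group's UMI total (CPM), was 2537 to 3746 in T cells, 6170 to 10967 in NK cells, 29486 to 39312 in microglia, 47519 to 54296 in neutrophils and 1546 to 1873 in neural cells. In B cells it ran from 751 to 51233, with the immunoglobulin gene Ighm among the markers. Immunoglobulin genes made up 44.9% of the UMIs of the B cells of Mavrilimumab 1 against 6.19% in Vehicle IgG 2 and 1.37% in Mavrilimumab 2. A share of that size lowers the CPM of all other genes in the B cells of Mavrilimumab 1, including the ligand levels below. The monocyte group carried monocyte markers at 4016 to 6268 CPM and dendritic cell markers at 841, 758 and 1370 CPM in Vehicle IgG 2, Mavrilimumab 1 and Mavrilimumab 2, against 1059, 2626 and 1377 CPM in the few cells gated as dendritic (10 in Mavrilimumab 1). It is called the monocyte group here by its rule, and its ligand levels cannot be assigned to monocytes rather than dendritic cells. The dendritic gate uses Flt3, Xcr1, Clec9a, Cd209a, Zbtb46 and Fscn1, which are among the dendritic cell markers. The marker level of the cells gated as dendritic is therefore partly set by their gate.

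The PD-1 ligand genes lie next to each other on mouse chromosome 19. Their promoters are shown because the levels of both genes followed one another across cell groups more than those of most other pairs described below. RefSeq sequence from 250 bases before to 50 bases after the start was held for 7 of the 9 genes (build GRCm38.p6), and the starts of both genes are 43481 bases apart on the + strand. Capitals mark a match to GAAANNGAA, the core of the interferon response element, which here reads on the opposite strand and begins 76 bases before the start.
Cd274, chr19:29367188-29367487: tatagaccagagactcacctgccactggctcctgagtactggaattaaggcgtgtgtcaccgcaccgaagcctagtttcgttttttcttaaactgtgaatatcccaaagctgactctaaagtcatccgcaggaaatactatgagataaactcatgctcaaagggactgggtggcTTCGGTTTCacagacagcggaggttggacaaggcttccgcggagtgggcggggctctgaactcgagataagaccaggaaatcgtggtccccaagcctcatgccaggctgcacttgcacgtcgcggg
Pdcd1lg2, chr19:29410669-29410968: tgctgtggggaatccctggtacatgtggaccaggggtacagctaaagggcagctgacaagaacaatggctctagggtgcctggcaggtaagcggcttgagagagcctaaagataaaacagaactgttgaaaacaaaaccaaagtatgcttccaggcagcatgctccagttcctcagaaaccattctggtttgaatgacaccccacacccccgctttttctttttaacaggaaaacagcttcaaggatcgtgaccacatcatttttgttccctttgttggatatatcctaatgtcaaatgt
Both strands were searched for GAAANNGAA, GGGACTTTC and GGGAATTTC (the last 2 are parts of NF-kB sites), which 8.56%, 0.353% and 0.259% of 32851 mouse promoters of this length hold. The Pdcd1lg2 window held none of them, the Lgals9 window held GAAANNGAA at 2 places, and those of Cd80, Nectin2, Icosl and Cd200 held none. These matches describe letters in the window and do not show that a factor binds.

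Cd274 was highest in neutrophils and was also well detected in T cells and B cells (plot of levels by cell group). Its level was 83.7 CPM in the neutrophils of Vehicle IgG 2 and 186 CPM in those of Mavrilimumab 2. In T cells it was 58.2, 24.3, 75.4 and 36.5 CPM, and in microglia 27.7, 20.2, 24.5 and 22.9 CPM. The B cells of Vehicle IgG 2, Mavrilimumab 1 and Mavrilimumab 2 had 53.3, 25.8 and 163 CPM, so that one library stood far above the others. The monocyte group (3.9 to 19.6 CPM) and neural cells (2.8 and 4.6 CPM) were lowest. Neutrophils, B cells, T cells and NK cells overlapped with their neighbors in this order, whereas NK cells (31.0 to 35.3 CPM) lay above microglia and microglia above the monocyte group in every library. Against the mean of the other groups Cd274 was higher in neutrophils (log2 fold change 2.80 ± 0.36 SE, edgeR adjusted p = 5.03e-05) and B cells (1.90 ± 0.29, adjusted p = 0.000452) and lower in the monocyte group (−1.88 ± 0.46, adjusted p = 0.00982) and neural cells (−3.49 ± 0.45, adjusted p = 3.67e-05). Without Mavrilimumab 2 the neutrophil difference was 2.28 ± 0.63 with an adjusted p of 0.131 and the B cell difference 1.35 ± 0.39 with an adjusted p of 0.108. Empty droplets, which hold free RNA, had 28.2, 8.1, 74.6 and 26.4 CPM, in each library below its T cells. In Mavrilimumab 1 they were close to T cells (75.4 CPM) and above B cells (25.8 CPM). They lay above the microglia of every library but Vehicle IgG 2, whose profile of empty droplets held only 368673 UMIs.

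Pdcd1lg2 was detected most in lymphocytes and was at or near 0 in microglia. NK cells had 40.0, 49.4 and 32.7 CPM in Vehicle IgG 2, Mavrilimumab 1 and Mavrilimumab 2, B cells 41.0, 14.2 and 21.8 CPM, and T cells of the 4 libraries 7.2, 13.4, 27.9 and 16.4 CPM. These 3 groups overlapped. Neutrophils of Vehicle IgG 2 and Mavrilimumab 2 had 8.4 and 14.6 CPM from 5 UMIs in all, within the range of T cells. Microglia of the 4 libraries held 11 UMIs in all (0 to 1.5 CPM), the monocyte group 4 UMIs and neural cells 19 UMIs. The call against the mean of the other groups was higher in NK cells (adjusted p = 5.05e-05), B cells (adjusted p = 0.00041) and T cells (adjusted p = 0.000587) and lower in microglia (adjusted p = 0.000789) and neural cells (adjusted p = 8.39e-05). No fitted fold is given for this gene, nor for Pvr, Nectin2 and Cd200, in comparisons of cell groups, because groups with 0 to 5 UMIs entered the mean and the fitted value depends there on the small count that the model adds. The lymphocyte calls held without any one library. Empty droplets had 2.3, 0, 20.8 and 8.6 CPM, the 0 of Vehicle IgG 2 in a profile of only 368673 UMIs.

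Cd80 and Cd86, the ligands of CD28 and CTLA-4, were led by different myeloid cells. Cd80 was highest in neutrophils, at 151 CPM in Vehicle IgG 2 and 138 CPM in Mavrilimumab 2. The 9 and 13 neutrophils of the other 2 libraries, too few for the test, had 174 and 133 CPM. Microglia had 22.9, 23.2, 27.8 and 19.0 CPM and overlapped with the monocyte group (15.4 to 30.0 CPM). T cells, neural cells, B cells and NK cells lay below both groups, at 0 to 13.5 CPM. The difference of neutrophils from the mean of the other groups was 4.79 ± 0.56 on the log2 scale (edgeR adjusted p = 1.66e-05) and held without any one library. That of microglia was 1.29 ± 0.45 (adjusted p = 0.0406), with adjusted p values of 0.0735 and 0.158 without Vehicle IgG 1 and Vehicle IgG 2. The microglial call was also lost at a minimum of 2000 UMIs per cell (adjusted p = 0.121), at a mitochondrial limit of 5% (0.0510), with cells of several groups kept (0.106) and after subtraction of either empty-droplet profile (0.0571 and 0.0576). Cd80 was lower in NK cells (−3.38 ± 0.80, adjusted p = 0.0108).

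Cd86 was a microglial transcript, with 396, 289, 330 and 332 CPM. When every cell was thinned to 1000 UMIs, so that depth could not set the share, 29.8%, 29.4%, 33.8% and 28.4% of microglia had a Cd86 UMI. The share was 0.0195% of neural cells in Vehicle IgG 2 and 0.242% in Mavrilimumab 2. The monocyte group followed with 108, 181 and 175 CPM and neutrophils with 83.7 and 50.9 CPM, and neither overlapped with the group above it. The log2 fold change against the mean of the other groups was 4.38 ± 0.32 in microglia (edgeR adjusted p = 3.75e-08) and 2.96 ± 0.37 in the monocyte group (adjusted p = 3.52e-05), and both held without any one library. B cells were called higher (1.33 ± 0.41, adjusted p = 0.0468) on levels of 36.9, 10.8 and 140 CPM, and the call was lost without Vehicle IgG 2 (adjusted p = 0.0984) and without Mavrilimumab 2 (adjusted p = 0.888). It was also lost at a minimum of 2000 UMIs per cell, at a mitochondrial limit of 5% and with cells of several groups kept. Cd86 was lower in NK cells (−2.91 ± 0.58, adjusted p = 0.00309) and in neural cells (−7.49 ± 0.80, adjusted p = 6.72e-06).

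**Figure D1:**
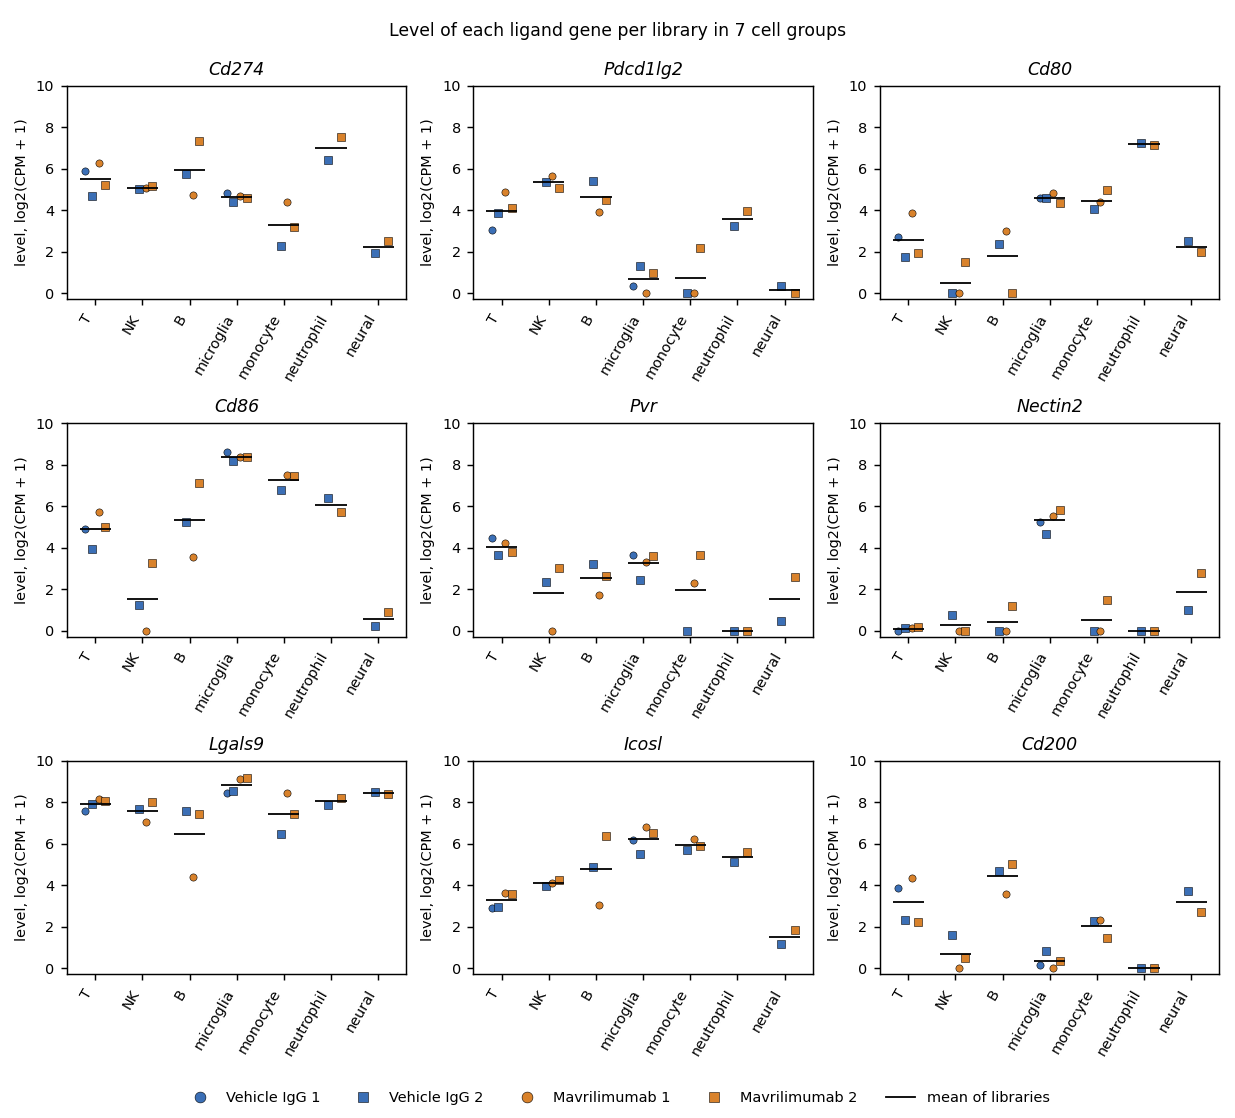
Level of each ligand gene on the log2(CPM + 1) scale (vertical axis) in 7 cell groups (horizontal axis), one point per library with at least 20 cells of the group, and the mean of the plotted values as a bar. By mean, Cd80 peaks in neutrophils and Cd86, Nectin2 and Icosl in microglia, where Icosl overlaps with the monocyte group. Pdcd1lg2 lies near 0 in microglia (11 UMIs in 4 libraries) and higher in T, NK and B cells.

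By mean level Icosl followed the myeloid order of Cd86, although in Vehicle IgG 2 the monocyte group lay above microglia. Microglia had 71.7, 44.1, 111 and 90.2 CPM and overlapped with the monocyte group (50.2, 74.7 and 59.2 CPM). Neutrophils had 33.5 and 47.3 CPM, NK cells 14.5 to 18.1 CPM, T cells 6.5 to 11.3 CPM and neural cells 1.2 and 2.5 CPM, and T cells overlapped with neither NK nor neural cells. The fold change against the mean of the other groups was 2.36 ± 0.24 on the log2 scale in microglia (edgeR adjusted p = 1.53e-06) and 1.78 ± 0.29 in the monocyte group (adjusted p = 0.000441). It was −1.39 ± 0.27 in T cells (adjusted p = 0.00148) and −4.34 ± 0.45 in neural cells (adjusted p = 5.35e-06). The microglial and monocyte calls held without any one library. B cells were again called higher (0.99 ± 0.30, adjusted p = 0.0434) on 28.7, 7.3 and 80.7 CPM, and the adjusted p was 0.125 without Vehicle IgG 2, 0.961 without Mavrilimumab 2 and 0.0911 with doublets removed. The B cell call was also lost at a minimum of 2000 UMIs per cell, at a mitochondrial limit of 5% and with cells of several groups kept.

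Of the TIGIT ligands, Nectin2 was mainly microglial, while Pvr overlapped between T cells and microglia. Nectin2 was at 36.6, 23.9, 45.8 and 56.0 CPM in microglia and reached 0.97 and 5.9 CPM in neural cells. T cells of the 4 libraries held 0, 1, 2 and 4 Nectin2 UMIs and NK, B and monocyte cells 1, 1 and 2 UMIs. Neutrophils held none, which allows up to 7.61 CPM (3 counts over the neutrophils of both libraries). It was called higher in microglia (edgeR adjusted p = 3.93e-08), a call that held without any one library, and in neural cells (adjusted p = 0.0466). Without Mavrilimumab 1 and without Mavrilimumab 2 the neural adjusted p was 0.135 and 0.301. Pvr was instead highest in T cells, with 21.0, 11.4, 17.9 and 12.9 CPM. The microglial levels were 11.6, 4.5, 9.0 and 11.3 CPM and overlapped with them. No Pvr UMI was seen in neutrophils, which again allows up to 7.61 CPM. Pvr was called higher in T cells (adjusted p = 0.00419), and its adjusted p was 0.0599 without Mavrilimumab 1. Empty droplets had 13.1, 0, 13.6 and 8.9 CPM of Pvr, the 0 of Vehicle IgG 2 in a profile of only 368673 UMIs.

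Lgals9 was present in every cell group and in the free RNA. Microglia had 348, 372, 560 and 580 CPM, neural cells 363 and 336 CPM, and T cells 188, 239, 288 and 268 CPM. Empty droplets had 148, 220, 204 and 222 CPM, in each library below its T cells. In Vehicle IgG 2, the library rich in neural cells, there were 64.6 Lgals9 UMIs per 1000 UMIs of the neural genes Nnat and Mdk in neural cells, 210 in T cells, 341 in microglia and 46.3 in empty droplets. Microglia were higher than the mean of the other groups (log2 fold change 1.28 ± 0.31, edgeR adjusted p = 0.00543). The adjusted p was 0.112 without Mavrilimumab 2 and 0.072 after the profile of empty droplets was subtracted, with the fold change at 1.24 and 1.30. Microglia overlapped with neural cells in the order of levels.

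Cd200 was found in B cells, T cells and neural cells and was nearly absent from microglia. B cells had 24.6, 10.8 and 32.0 CPM, T cells 13.8, 4.0, 19.2 and 3.7 CPM and neural cells 12 and 5.5 CPM, and these ranges overlapped. Microglia held 4 UMIs in 4 libraries and neutrophils held none, where 3 counts allow up to 7.61 CPM. The calls against the mean of the other groups were higher in B cells (edgeR adjusted p = 0.000296), neural cells (adjusted p = 0.0221) and T cells (adjusted p = 0.0257). The T cell call was lost without Vehicle IgG 1, Mavrilimumab 1 or Mavrilimumab 2 (adjusted p = 0.0804, 0.196 and 0.169), at a minimum of 2000 UMIs per cell (0.102) and with doublets removed (0.0900). The neural call was lost without Vehicle IgG 2 or Mavrilimumab 2, which leaves a single neural sum, at 2000 UMIs and with cells of several groups kept. The B cell call was lost without Mavrilimumab 2 (adjusted p = 0.0651) and with cells of several groups kept.

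Counted over the 9 genes, B cells and microglia each had 5 called higher than the mean of the other groups. In microglia these were Nectin2, Icosl, Lgals9, Cd86 and Cd80, and in B cells Icosl, Cd86, Cd200, Cd274 and Pdcd1lg2. The same call was made for 21.3% of all genes in microglia and 7.53% in B cells. T cells had 3 (16.3% of all genes), and the monocyte group (11.5%), neutrophils (9.67%) and neural cells (25%) had 2 each. NK cells had 1 (7.77%). Without Mavrilimumab 1 the count in T cells was 1, and without Mavrilimumab 2 that in B cells was 1, that in neutrophils 1 and that in neural cells 0. Without Vehicle IgG 2 the counts in B cells and neural cells were 3 and 1. Without Mavrilimumab 1 the count was 4 in neutrophils and 1 in neural cells.

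Most receptors of these ligands were called higher in T cells, and some also in other cell groups. Of 10 receptor genes, 9 were called higher in T cells than in the mean of the other groups and 1 was lower, and in NK cells 4 were called higher and 1 lower. In microglia 3 were called higher (Pdcd1, Pvrig and Havcr2) and 2 lower, in B cells 2 higher and 1 lower, in the monocyte group 1 higher and 1 lower, in neutrophils 1 higher and in neural cells 6 lower. Their summed level was 1055, 1470 and 973 CPM in the T cells of Vehicle IgG 2, Mavrilimumab 1 and Mavrilimumab 2 and 952, 1030 and 1073 CPM in the NK cells of the same libraries. T cells had 304 to 423 CPM of Cd226, 77.1 to 180 CPM of Pdcd1 (PD-1), 75.5 to 226 CPM of Icos, 38.8 to 150 CPM of Ctla4 and 21.0 to 145 CPM of Tigit. Havcr2 (TIM-3) was at 2.0 to 11.9 CPM in T cells and at 198, 174, 215 and 244 CPM in microglia. All 10 receptors together summed to 282 to 349 CPM in microglia. The microglial Pdcd1 call is against a mean that takes in groups without a Pdcd1 UMI, such as the monocyte group and neutrophils of Vehicle IgG 2. Of 13 other ligand genes that passed the count filter, 8 were called higher in microglia and 8 in the monocyte group. In T, NK and B cells, neutrophils and neural cells 3 each were called higher, and 2 were lower in T cells and 5 in neural cells. Of all genes 21.3% were called higher in microglia, 11.5% in the monocyte group and 16.3% in T cells. These counts were not tested against each other. Of 18 genes induced by interferon-gamma, 12 were called higher in T cells and none lower, with a median of 1.25 on the log2 scale against 0.17 for all genes. All 6 MHC class II genes, which present antigen, were called higher in the monocyte group and 5 of 6 in B cells.

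Within T cells, the ligands differed between CD8 T cells, CD4 T cells without Foxp3 and Foxp3-positive regulatory T cells (Treg), as the plot of T cell subsets shows. Cd86 was higher in CD8 cells (62.1, 23.6, 76.2 and 34.9 CPM) than in CD4 cells (14.8, 0, 29.6 and 14.7 CPM) of every library. The difference of CD4 minus CD8 was −1.57 ± 0.26 on the log2 scale (edgeR adjusted p = 0.00149), and it held without any one library. Cd200 ran the other way, with 26.6, 10.1, 48.7 and 13.7 CPM in CD4 cells and 4.2, 4.2, 5.3 and 2.3 CPM in CD8 cells. Its difference of 2.58 ± 0.32 (adjusted p = 0.00016) also held without any one library. Lgals9 was 0.40 ± 0.11 lower in CD4 cells on the log2 scale (−0.40, adjusted p = 0.0339), a call lost without any one of the libraries (adjusted p from 0.0628 to 0.165). In all 3 of 8 genes tested were called, and 10.8% of all genes were.

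The Cd86 UMIs of CD8 T cells were set beside those of microglial C1q genes (C1qa, C1qb and C1qc) in the same sums. There were 2682, 1707, 2959 and 1357 Cd86 UMIs per 1000 C1q UMIs in CD8 cells, against 23.0, 14.2, 13 and 13.8 in microglia and 124, 0, 118 and 21.4 in empty droplets of 10 to 100 UMIs. The droplets of Vehicle IgG 2 held only 56 C1q UMIs, and those of 10 to 300 UMIs had 33.3 Cd86 UMIs per 1000. In Vehicle IgG 2, Mavrilimumab 1 and Mavrilimumab 2 the monocyte group had 14000, 354 and 22000. The cells gated as dendritic had 2333, 7667 and 198 there. Both hold few C1q UMIs beside Cd86 in some libraries, so the ratio does not tell them from CD8 cells. Dendritic cell markers summed to 302, 150, 59.0 and 146 CPM in CD8 cells and to 419, 378, 124 and 564 CPM in CD4 cells, lower in CD8 cells of every library. Monocyte markers were higher in CD8 cells of every library (314, 379, 651 and 513 CPM) than in CD4 cells (103, 80.9, 355 and 195 CPM), as were NK markers (1717, 2488, 3380 and 2808 against 501, 185, 535 and 299 CPM). Neutrophil markers were lower in CD8 cells of every library, at 2.4 to 15.9 CPM against 12.3 to 45.6 CPM. Of 6 MHC class II genes 5 were called higher in CD4 than in CD8 cells, with a median of 3.02 on the log2 scale. They summed to 18.7 to 1018 CPM in CD4 cells and 29.5 to 151 CPM in CD8 cells. In Vehicle IgG 1 and Vehicle IgG 2 the CD4 sums (18.7 and 27.0 CPM) lay below those of CD8 cells (29.5 and 88.9 CPM). The part of these markers and genes in the Cd86 and Cd200 differences was not tested.

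Treg had at least 20 cells in 3 libraries (25, 660 and 64 cells in Vehicle IgG 2, Mavrilimumab 1 and Mavrilimumab 2). Cd80 was at 0, 39.3 and 18.8 CPM there against 3.0, 8.2 and 2.8 CPM in the CD8 cells of the same libraries. Treg minus CD8 was 2.02 ± 0.48 on the log2 scale for Cd80 (edgeR adjusted p = 0.0116), 1.59 ± 0.42 for Cd200 (adjusted p = 0.0205) and 1.23 ± 0.34 for Pdcd1lg2 (adjusted p = 0.0261). In Vehicle IgG 2 none of these 3 genes had a UMI in its 25 Treg. These 3 of 8 genes were called, beside 14.6% of all genes, and none was called without Mavrilimumab 1 or without Mavrilimumab 2. MHC class II genes summed to 3518, 3117 and 1410 CPM in Treg against 88.9, 151 and 69.4 CPM in CD8 cells, and B cell markers to 311, 838 and 435 against 121, 148 and 182 CPM. Neutrophil markers (53.6, 78.6 and 41.3 against 15.9, 2.4 and 6.8 CPM) and dendritic cell markers (193, 84.2 and 294 against 150, 59.0 and 146 CPM) were also higher in Treg of each library. Their part in these differences was not tested. Of the 10 receptors 5 were called higher and 2 lower in Treg, led by Ctla4 (4.31 ± 0.29), Icos, Cd200r1 (1.95 ± 0.22) and Cd226 (−1.73 ± 0.20) on the log2 scale.

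**Figure D2:**
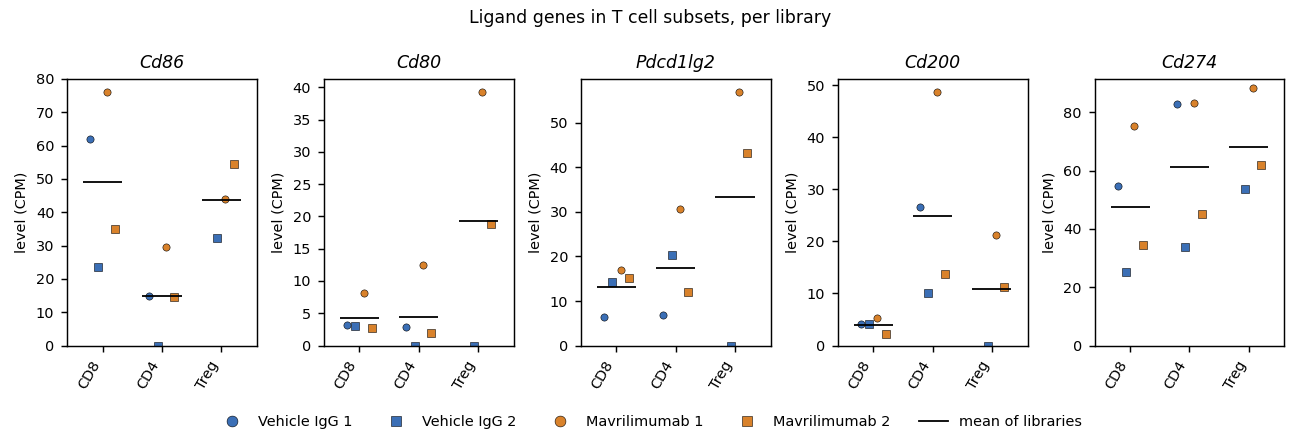
Level in CPM (vertical axis) of 5 ligand genes in CD8, CD4 and regulatory T cells, one point per library with at least 20 cells of the subset, and the mean as a bar. Each library's CD8 point lies above its CD4 point for Cd86 and below it for Cd200, and the Treg of Vehicle IgG 2 are at 0 for Cd80, Pdcd1lg2 and Cd200.

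More microglia than T cells held several of the 9 ligands at once. At 1000 UMIs per cell, 11.8%, 15.2%, 22.7% and 20.3% of microglia had UMIs of at least 2 of the genes, against 2.27%, 1.81%, 6.00% and 3.53% of T cells. The ranges of both groups did not overlap. Neutrophils of Vehicle IgG 2 and Mavrilimumab 2 were at 11.1% and 16.7%, and the monocyte group of Vehicle IgG 2, Mavrilimumab 1 and Mavrilimumab 2 at 2.38%, 15.6% and 1.67%, so that both overlapped with microglia in range. Neural cells reached 0.526% and 0%, although 27.1% and 25.7% of them had a UMI of at least 1 gene, with Lgals9 alone seen in 25.4% and 24.7%. In microglia 51.3%, 59.8%, 69.7% and 64.7% of cells had at least 1.

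**Figure D3:**
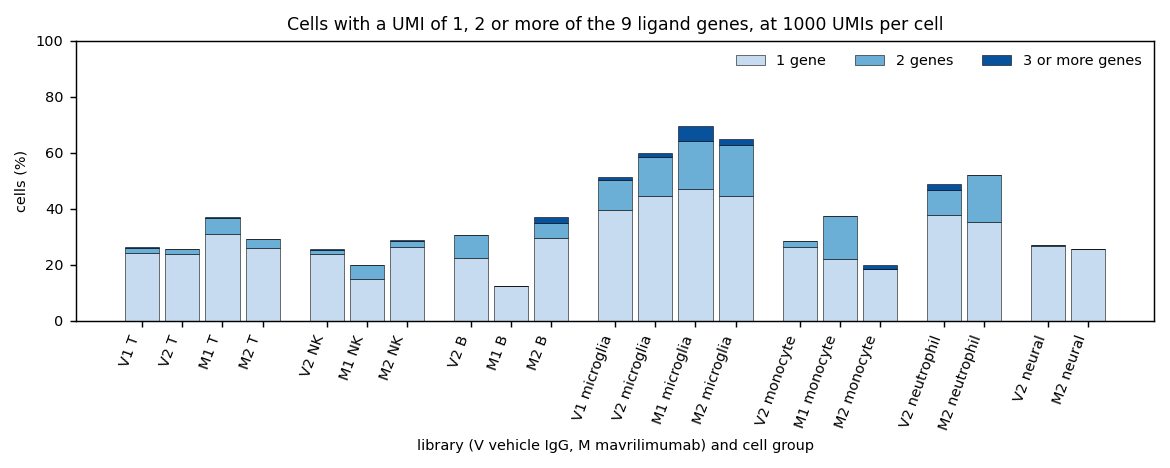
Percent of cells (vertical axis) with a UMI of 1, 2 or at least 3 of the 9 ligand genes after thinning to 1000 UMIs, one stacked bar per library and cell group with at least 20 cells. In microglia 11.8% to 22.7% of cells hold at least 2 genes, above the T cells of every library, and the neutrophils, at 11.1% and 16.7%, overlap with them in range.

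The study asked what blocking the GM-CSF receptor does to the tumor's immune cells. No ligand gene passed the test between the treatments in T cells or microglia, the groups with 2 libraries per treatment. In T cells 8 genes were tested and 0 were called, as were 0% of all genes (721 of 14246 at an unadjusted p below 0.05, and 158 called with DESeq2, none of them among the 9). All 8 fitted differences were above 0, with a median of 0.69 on the log2 scale against −0.01 for all genes. Pdcd1lg2 (7.2 and 13.4 against 27.9 and 16.4 CPM) had 1.16 ± 0.46, Cd86 (28.9 and 14.4 against 51.9 and 30.7 CPM) 1.04 ± 0.43, Icosl (6.5 and 6.9 against 11.3 and 10.9 CPM) 0.83 ± 0.34 and Lgals9 (188 and 239 against 288 and 268 CPM) 0.48 ± 0.22, each with an edgeR adjusted p of 0.799. For these 4 genes both mavrilimumab libraries lay above both vehicle libraries, which 11.7% of all genes did, while in 20.5% both lay below. Cd80 (1.16 ± 0.93), Cd274 (0.54 ± 0.54), Cd200 (0.45 ± 1.01) and Pvr (0.04 ± 0.40) overlapped between treatments. Without Mavrilimumab 1, Cd80, Cd200 and Pvr were at −0.25, −1.03 and −0.10. CD8 cells numbered 67, 1956, 1961 and 1815, CD4 cells 87, 106, 1305 and 348 and Treg 12, 25, 660 and 64. Within CD8 cells Icosl averaged 12.4 CPM in both treatments, and Cd86 (42.8 against 55.5 CPM on average) overlapped. Pdcd1lg2 (10.3 against 16.1 CPM) and Lgals9 (232 against 288 CPM) were higher on average in CD8 cells of mavrilimumab libraries. The part of the subset mix was not tested.

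Other gene lists were set beside the ligands in T cells, and none of their genes was called. Of 17 tested genes induced by interferon-gamma, all 17 had a fitted difference above 0 and 0 were called, with a median of 1.00. Psmb9, an immunoproteasome subunit, had 1.10 ± 0.24 (adjusted p = 0.799), and the summed level of the list was 3014, 2230, 6154 and 3469 CPM. MHC class II genes had a median of 2.50 and summed to 25.7, 144, 752 and 148 CPM, receptors a median of 0.34 and other ligands a median of 0.42, none called. Monocyte markers summed to 179, 249, 484 and 445 CPM and NK markers to 864, 1590, 1956 and 2457 CPM in T cells, B cell markers to 173, 88.7, 273 and 189 CPM and the T cell markers themselves to 2989, 2537, 3746 and 3650 CPM, also without overlap between treatments, and their part in the ligand differences was not tested. Neural markers stood at 467 CPM in the T cells of Vehicle IgG 2 and at most 12.1 CPM in the others.

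In microglia 7 of the 9 genes were tested and 0 were called, as were 0% of all genes (347 of 12169 at an unadjusted p below 0.05, and 9 called with DESeq2, none of them among the 9). Icosl (71.7 and 44.1 against 111 and 90.2 CPM) had a log2 fold change of 0.84 ± 0.34, Nectin2 (36.6 and 23.9 against 45.8 and 56.0 CPM) 0.80 ± 0.30 and Lgals9 (348 and 372 against 560 and 580 CPM) 0.73 ± 0.24, each with an edgeR adjusted p of 1.00. In these 3 genes both mavrilimumab libraries lay above both vehicle libraries, as in 12.9% of all genes, and in 18.0% of all genes both lay below. Without Vehicle IgG 1, Icosl reached 1.27 ± 0.27 with an adjusted p of 0.0393, in a fit that called 855 of 11351 genes and whose only vehicle library is assumed to vary like the mavrilimumab libraries. The share of microglia with a Lgals9 UMI at 1000 UMIs was 27.9% on average in vehicle and 41.0% in mavrilimumab libraries (exact permutation test, two-sided p = 0.33, the smallest that 2 against 2 libraries allow). Pvr (0.34 ± 0.57) overlapped. Cd80 (0.07 ± 0.31), Cd274 (0.03 ± 0.29) and Cd86 (0.01 ± 0.28) had differences near 0 whose sign changed with the processing.

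MHC class II genes had the largest list median in microglia, at 2.15 on the log2 scale. H2-Eb1 (5.01 ± 0.33) and H2-Aa (4.44 ± 0.32) each had an edgeR adjusted p of 0.227, and the list summed to 496, 498, 1437 and 1406 CPM. Monocyte markers in microglia summed to 112, 194, 222 and 485 CPM and the microglial markers themselves to 31486, 29486, 39312 and 37332 CPM, also higher in both mavrilimumab libraries. Their part in the ligand differences was not tested. Genes induced by interferon-gamma had a median of 0.26, receptors 0.26 and other ligands 0.32, with none called.

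**Figure D4:**
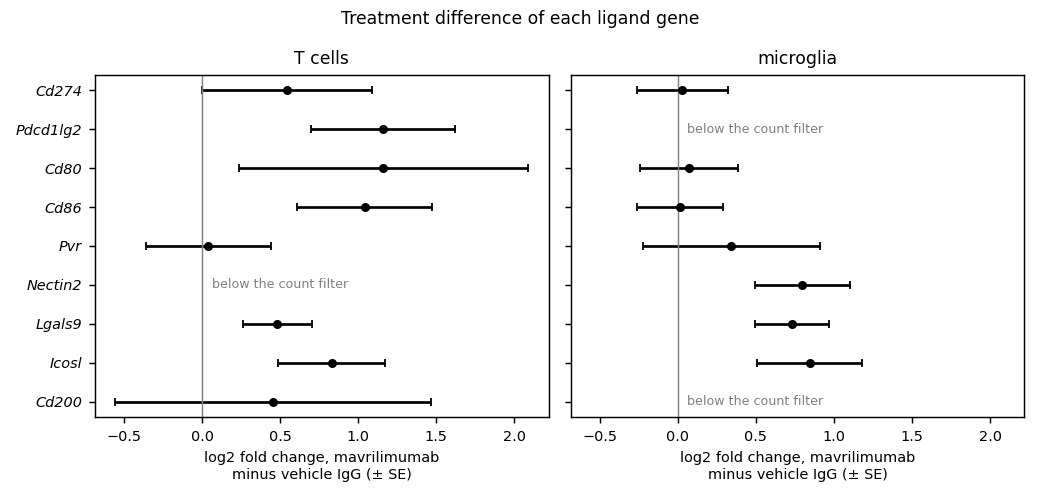
Log2 fold change of mavrilimumab minus vehicle IgG (horizontal axis) for each ligand gene in T cells and microglia, from 2 libraries per treatment, with bars of ± 1 SE. All 8 tested genes lie above 0 in T cells, between 0.04 and 1.16, and none passed the test after adjustment over all genes.

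The treatment difference was then compared between both cell groups. Cd86 had the smallest p of the 9 genes, with the microglial difference 1.18 ± 0.33 lower on the log2 scale (−1.18, edgeR adjusted p = 1.00). No gene was called (0% of 15568, with 395 at an unadjusted p below 0.05). In NK, B and monocyte cells the vehicle side had 1 library, Vehicle IgG 2, which is assumed there to vary like the mavrilimumab libraries. These fits therefore have no replicate of the vehicle. The share removed as doublets, set by cell number, was 21.4% in Vehicle IgG 2 and at most 5.13% in the other libraries. With doublets removed, fewer genes were called in NK cells and in the monocyte group. Of 6 genes tested in NK cells 0 were called, against 10.5% of all genes, and Cd86 had 2.39 ± 1.44 (adjusted p = 0.511). Of 6 tested in B cells 0 were called, as were 0% of all genes (397 of 8721 at an unadjusted p below 0.05, and 33 called with DESeq2, none among the 9), and Cd274 had 1.01 ± 0.94 (adjusted p = 1.00). Of 3 tested in the monocyte group 0 were called, against 1.08% of all genes, and Lgals9 had 1.56 ± 0.56 (adjusted p = 0.312). Of the related lists, 2 of 17 genes induced by interferon-gamma were called higher in NK cells, 1 of 7 other ligands was called higher and 1 lower, and in the monocyte group 1 of 9 other ligands was called higher, each on that one vehicle library and, in NK cells, with 20 cells in Mavrilimumab 1. Neutrophils and neural cells had too few libraries for this test.

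Across the 21 sums of library and cell group, the genes whose log2 level followed each ligand most closely were sought among 11039 genes, as a description only, since the sums share libraries and cells. For Icosl these were Lyn (Pearson r = 0.96), Nrros (0.93) and Ncf1 (0.93), for Nectin2 Neurl1a (0.98), Gal3st4 (0.98) and Asap3 (0.97), and for Cd80 Ier3 (0.89), Nlrp3 (0.88) and Clec5a (0.88). Pdcd1lg2 was closest to Ptprcap (0.90), Ltb (0.89) and Rhof (0.87), and Cd86 to Hmga2-ps1, Nlrp1b and Cyb561a3 (0.89 each). Cd274 (Map4k2 at 0.84), Lgals9 (Tmem11 at 0.90), Pvr (Mtfmt at 0.80) and Cd200 (Heg1 at 0.79) had their own neighbors. Among the ligands themselves the closest pairs were Cd86 and Icosl (0.82), Cd274 and Pdcd1lg2 (0.65) and Cd80 and Cd86 (0.62).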

How the data were processed

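The authors' deposited matrices hold raw UMI counts per gene and droplet barcode, unfiltered, from Cell Ranger (9.0.1 in the file header, while the submitters' processing notes list versions 7 and 7.1.0, Scanpy 1.8.2 and build mm10). The annotation version is not given in the sources used here. Of the TCR files only barcodes, cell calls and inner sample names were used, and one TCR library was not analysed here.

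Cells had at least 1000 UMIs (neutrophils 500), 200 to 6000 genes and at most 10% mitochondrial UMIs. Groups were gated on counts: T (Cd3e), NK (Ncr1, Klrb1c), B (Cd79a, Cd79b), microglia (P2ry12, Tmem119), monocyte (Ccr2, Ly6c2, Lyz2), neutrophil (Retnlg, Cxcr2) and neural (Nnat, Mdk, no Ptprc). Cells meeting several rules were left out. No doublet caller was used in the main result. Counts were summed per library and group with at least 20 cells, and these sums, 21 over the 7 groups, were tested by edgeR 4.0.16 in R 4.3.3 (quasi-likelihood test, TMM, filterByExpr, Benjamini-Hochberg FDR 0.05 over all genes, library as a block between groups, SE from the F statistic). In simulated data for the T cell treatment test (13851 genes), 35.4% of genes changed by 2 on the log2 scale were recovered and 0% of those changed by 1. For the microglial treatment test (11698 genes) the shares were 35.4% and 1%. Shares of cells were taken after thinning to 1000 UMIs. Neutrophils below that count were left out of the shares, so that 45 of 56 entered in Vehicle IgG 2 and 48 of 50 in Mavrilimumab 2. Limits from counts of 0 use 3 counts and cover counting error only. Levels of different ligand genes were not compared with each other.

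The rule for the members uses no measured value, but members and lists were chosen with earlier results of these data known. All 9 members are named throughout. Of other lists, up to 4 genes with the largest change among those called, or the 2 with the smallest p, were named, besides the levels of the receptors in T cells, the receptors called in microglia and the microglial level of Havcr2, added after their values were seen. Genes called on 1 vehicle library are given as counts. One promoter motif and one gene of these lists are not reported here. Alternatives were DESeq2 1.42.0, its size factors, no count filter, stricter cell filters, a Scrublet score (Scanpy 1.11.5), cells of several groups kept, subtraction of the empty-droplet profile (10 to 100 UMIs), a replicate block and leaving out each library. The profile from 10 to 300 UMIs and leaving out the B cells of Mavrilimumab 1 were added after seeing the data. Scripts ran in Python 3.11.15 with pandas 2.3.3, numpy 2.4.6, scipy 1.17.1 and matplotlib 3.10.9.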

Additional observations from a re-analysis of the deposited data

How the results depend on the processing

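Of the counts of called members and levels, 138 alternative values stayed within the limits set for a stable result and 33 did not. A count close to the main count fell within these limits, also where a call was lost. Many of the stable values were treatment tests that went from 0 called to 0 called, with the low recovery given above. Without any one library in turn, the members called between treatments numbered 0 to 1 in microglia, with Icosl called without Vehicle IgG 1, and those called higher against the mean of the other groups ranged from 1 to 3 in T cells, 1 to 5 in B cells, 1 to 4 in neutrophils and 0 to 2 in neural cells. Those called between Treg and CD8 cells ranged from 0 to 3. In T cells the count was 2, without Cd200, at a minimum of 2000 UMIs and with doublets removed, and 4, with Cd274, with cells of several groups kept. In neutrophils it was 3, with Cd86, under DESeq2's size factors and after subtraction of the profile to 300 UMIs. With cells of several groups kept it was 3 in neutrophils, with Pdcd1lg2. Without Mavrilimumab 1 the count in the monocyte group was 3, with Cd80. In B cells it was 3 at 2000 UMIs and 3 at a mitochondrial limit of 5%, both without Cd86 and Icosl. It was 1 in B cells with cells of several groups kept, Cd200, Cd274, Cd86 and Icosl being lost, and 4, without Icosl, with doublets removed. In microglia it was 3 after subtraction of either empty-droplet profile, Cd80 and Lgals9 being lost, and 4, without Cd80, at 2000 UMIs, at the 5% limit and with cells of several groups kept. In neural cells it was 1 without a count filter, 1 at 2000 UMIs, 1 at the 5% limit, 0 with cells of several groups kept and 1 without the B cells of Mavrilimumab 1, and without those B cells it was 4 in neutrophils. In the monocyte group 1 member, Lgals9, was called between treatments after subtraction of either profile. All genes called there were then 289 of 5404 and 239 of 5402, against 61 of 5626, and 50% of the UMIs, the most allowed, were removed from the only vehicle sum on an estimate from 13 UMIs of other cell types. The cause was not tested.

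Treatment differences near 0 changed sign. In T cells Pvr was −0.13 with doublets removed and −0.021 and −0.060 after subtraction of the profiles. In microglia, with doublets removed and then after subtraction of the profiles to 100 and to 300 UMIs, Cd274 was −0.044, −0.13 and −0.17, Cd80 −0.14, −0.10 and −0.13, and Cd86 −0.15, −0.19 and −0.20. Cd86 was −0.00334 with DESeq2's size factors and −0.00587 with DESeq2. Without one library in turn the log2 fold change ranged in T cells from −0.25 to 1.85 for Cd80, −0.33 to 0.54 for Pvr and −1.03 to 1.56 for Cd200, and in microglia from −0.19 to 0.31 for Cd274, −0.20 to 0.30 for Cd80, −0.21 to 0.29 for Cd86 and −0.10 to 1.31 for Pvr.

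The replicate numbers mark no shared animal or day in the labels. Deviations of same-numbered libraries correlated at 0.45 in T cells and 0.39 in microglia. The libraries numbered 2 held more barcodes (1350590 and 970596) than those numbered 1 (570534 and 526239), and more neural cells. Whether same-numbered libraries share a batch cannot be told from the labels. With a replicate block 0 members were called in T cells and 0 in microglia, while the genes called were 0 in T cells and 165 in microglia (12 higher, 153 lower). With the block no fit was possible in NK, B and monocyte cells. Genes called in microglia were also 855 without Vehicle IgG 1, 210 without Vehicle IgG 2, 23 without a count filter, 9 with DESeq2 and 1 after subtraction to 100 UMIs, and those in T cells 158 with DESeq2. DESeq2 called 3 genes higher and 225 lower in NK cells (edgeR 62 and 1140) and 4 and 23 in the monocyte group (edgeR 11 and 50).

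Depth set the shares of cells with a UMI. Thinned and unthinned means over libraries were 10.6% and 22.4% for Cd274 in neutrophils, 2.08% and 18.9% for Pdcd1lg2 in NK cells, 18.5% and 33.5% for Cd80 in neutrophils, and 30.4% and 74.0% for Cd86, 4.36% and 24.2% for Nectin2, 34.5% and 78.3% for Lgals9 and 6.90% and 36.7% for Icosl in microglia. They were 1.91% and 11.4% for Pvr in T cells and 1.02% and 11.5% for Cd200 in B cells.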

Other observations

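The few cells gated as dendritic (28, 10 and 27 in Vehicle IgG 2, Mavrilimumab 1 and Mavrilimumab 2) entered no test. Cd86 was at 128, 282 and 258 CPM in them, Icosl at 30.4, 98.2 and 104 CPM, Cd80 at 6.1, 73.6 and 37.8 CPM and Cd274 at 0, 73.6 and 31.5 CPM.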
